A study of Mus musculus with 2 samples.

Results

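Bidirectional protein-coding promoters are stretches of DNA from which 2 protein-coding genes are read in opposite directions, one on each strand. In the GENCODE M21 basic annotation of the mouse build GRCm38 (mm10), 933 such pairs were found on chromosomes 1 to 19 among 967 candidate pairs, holding 1866 of 20807 protein-coding genes (8.97%). A pair was a minus-strand gene lying to the left of a plus-strand gene, each the other's nearest partner, with at most 1000 bp between their nearest transcription start sites (TSSs). The region of a pair ran from one TSS to the other with 200 bp added on each side. The rule used the annotation alone, although it was proposed with earlier results of these libraries known. The TSS distance had a median of 128 bp (quartiles 70 and 257 bp, lowest 0, highest 996 bp), the regions were 401 to 1397 bp wide (median 529 bp), and 0 regions overlapped a neighbouring one.

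The chromatin data were 2 DNase-seq libraries of the left cerebral cortex of adult male B6CASTF1/J mice aged 18 to 20 months, offspring of a cross of C57BL/6 with CAST, a strain derived from wild mice. DNase I cuts accessible DNA, so peaks of cuts mark open chromatin, and footprints are short stretches inside it that are cut less than their surroundings, as happens under bound protein. Both libraries belong to 1 untreated group. They are labelled biological replicates 1 and 2, with tissue entries of their own under a single donor entry, so the spread between them may be technical. Tissue was not sorted, so a weaker promoter and a promoter open in fewer of the cells cannot be told apart. Replicate 1 had 73221 peaks and 264450 footprints, and replicate 2 had 111105 peaks and 385637 footprints. Of the promoters of 8 neuronal marker genes, 7 and 8 had a peak in replicates 1 and 2, as did all 5 glial markers on these chromosomes in both libraries, while 0 of 10 marker promoters of liver, gut, pancreas, muscle, blood and germ cells had one. An exact two-sided test over 2 libraries cannot give a p below 0.5, so values are set beside the spread between the libraries and no p is given.

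Shared promoters of this kind are known in mammals for short gaps between the start sites, high GC and CpG content and few TATA boxes, and for serving many genes of DNA repair, mitochondrial function and RNA handling. Sequence motifs bound by ETS-family factors, NRF1, YY1 and NFY are known to be common in them. Whether the partners are transcribed together in a cell cannot be read from open chromatin.

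The stretches between the TSSs of the most strongly open pairs are shown for 4 of the 10 strongest pairs, whose stretch is 20 to 300 bp long and free of annotated exons. The stretch of Kcnab2/Nphp4, which also met this, held no peak in either library and is not printed. Sequences are the plus strand of the RefSeq GRCm38.p6 assembly, from the base after the minus-strand TSS to the base before the plus-strand TSS. Capitals mark bases that lay in a footprint in both libraries.
Ruvbl2/Gys1, chr7:45434624-45434843, 220 bp: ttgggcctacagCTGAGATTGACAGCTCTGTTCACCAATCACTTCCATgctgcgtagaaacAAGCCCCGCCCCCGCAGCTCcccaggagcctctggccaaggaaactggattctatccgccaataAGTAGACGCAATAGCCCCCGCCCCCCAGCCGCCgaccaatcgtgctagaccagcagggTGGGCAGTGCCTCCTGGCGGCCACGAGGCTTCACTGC
Rita1/Ddx54, chr5:120612590-120612738, 149 bp: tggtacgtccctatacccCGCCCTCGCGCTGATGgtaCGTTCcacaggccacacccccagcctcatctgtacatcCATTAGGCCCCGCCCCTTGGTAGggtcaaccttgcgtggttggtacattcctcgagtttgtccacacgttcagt
Rnft2/2410131K14Rik, chr5:118245117-118245226, 110 bp: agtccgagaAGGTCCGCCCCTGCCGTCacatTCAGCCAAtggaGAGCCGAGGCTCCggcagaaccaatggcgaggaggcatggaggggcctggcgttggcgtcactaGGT
Qtrt2/Ccdc191, chr16:43889686-43889799, 114 bp: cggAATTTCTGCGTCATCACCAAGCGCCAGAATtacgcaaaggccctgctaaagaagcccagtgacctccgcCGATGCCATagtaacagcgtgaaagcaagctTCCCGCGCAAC
The promoter of Ruvbl2, an ATPase of chromatin-remodelling complexes, and Gys1, the muscle form of glycogen synthase, had 126 of 220 bases in footprints of both libraries. One NFY motif and 2 GC-box motifs (SP and KLF factors) were found in it, and footprints of both libraries touched a site of each kind. Between Rita1, a tubulin-binding regulator of Notch signalling, and Ddx54, an RNA helicase, 44 of 149 bases lay in shared footprints, and these touched the 1 GC box found there. The strongest peak of that region lay past the Ddx54 TSS in both libraries, outside the printed stretch.

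The 3 well-known pairs whose stretch could be shown in the same way are given next.
Hspd1/Hspe1, chr1:55088025-55088131, 107 bp: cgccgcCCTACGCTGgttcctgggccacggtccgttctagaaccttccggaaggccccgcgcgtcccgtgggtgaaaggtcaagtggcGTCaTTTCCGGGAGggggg
Brca1/Nbr1, chr11:101551880-101552148, 269 bp: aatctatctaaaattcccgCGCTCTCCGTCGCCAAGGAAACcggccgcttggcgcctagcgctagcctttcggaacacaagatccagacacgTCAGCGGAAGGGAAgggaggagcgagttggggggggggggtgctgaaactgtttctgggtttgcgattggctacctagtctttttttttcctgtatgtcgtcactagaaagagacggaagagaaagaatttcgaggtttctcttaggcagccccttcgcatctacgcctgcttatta
Mrps12/Sars2, chr7:28741821-28742001, 181 bp: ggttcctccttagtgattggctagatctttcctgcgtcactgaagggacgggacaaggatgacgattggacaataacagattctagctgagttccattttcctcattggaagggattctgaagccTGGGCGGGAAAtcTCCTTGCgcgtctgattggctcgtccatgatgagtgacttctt
The stretch between Hspd1 and Hspe1, which encode the mitochondrial chaperonin and its co-chaperonin, held 2 overlapping ETS motif matches, neither of which touched a shared footprint. That between Mrps12 and Sars2, a mitochondrial ribosomal protein and the mitochondrial seryl-tRNA synthetase, held 3 NFY motif matches, again outside the 18 bases in shared footprints. Between Brca1, a DNA repair gene, and Nbr1, an autophagy receptor gene, 36 of 269 bases lay in shared footprints and none of the motifs searched was found.

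Nearly all bidirectional promoters were open in the aged cortex. A peak of the shorter deposited list overlapped 869 of 933 regions in replicate 1 and 871 in replicate 2, or 93.1% and 93.4%. Over all protein-coding genes of these chromosomes, promoter windows had a peak in 55.1% and 55.2%. These windows ran from 200 bp downstream of the most upstream TSS to 200 bp beyond the pairs' median TSS distance (128 bp) upstream. Both libraries had a peak at 864 pairs (92.6%), beside 52.6% over all genes. Replicate 1 alone had one at 5 pairs, replicate 2 alone at 7, and neither library at 57.

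One-sided promoters were the comparison set: 16864 protein-coding genes with no opposite-strand TSS of any annotated gene within 1000 bp. Each gave 1 window per class of TSS distance, as long as a pair's region at the median distance of that class. Lengths of single regions within a class were not matched. A pair's region was built around the TSSs of 2 genes, and a one-sided window around that of 1 gene. A peak at either gene thus made a pair open, and its strongest signal, footprints and motifs could come from either promoter. The part of this in the differences below was not tested. The one-sided windows were weighted to the pairs' own mix of distance classes and of GC content in classes of 5 percentage points. Without that weighting the sets differed in composition. The pairs' regions had a median GC content of 62.4% against 53.1% in the one-sided windows, and a median observed over expected CpG of 0.827 against 0.460. At the same GC content, 93.1% and 93.4% of pairs were open in the 2 libraries, against 72.9% and 70.9% of one-sided promoters. The difference was 21.3 ± 1.60 percentage points (SD, n = 2), and 20.2 and 22.5 points in the single libraries.

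CpG content moved with this difference. With one-sided windows weighted to the pairs' CpG classes in place of GC classes, 93.1% and 93.4% of pairs were open against 85.6% and 83.1% of one-sided promoters, a difference of 8.885 points. Weighted to both at once, the one-sided share was 86.6% and 84.4%, and the difference 7.73 points, which is still larger than the spread between the libraries. Without any weighting for composition it was 44.5 points.

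Strength followed the same order. The signal of the strongest peak in an open region, the authors' own value per peak, had a median of 5.33 and 4.56 at pairs and 3.71 and 2.77 at one-sided promoters of the same GC content. The ratio was 1.44 in replicate 1 and 1.65 in replicate 2, and the difference of medians 1.71 ± 0.122 (SD, n = 2). With CpG classes the one-sided medians were 4.10 and 3.05. The strongest peak was among the strongest 10% of its library's peaks at 66.4% and 80.1% of open pairs, against 40.5% and 51.1% of open one-sided promoters. The strongest peak of a region reached into the stretch between the TSSs at 91.8% and 92.4% of open pairs, and at 71 and 66 pairs it lay wholly outside that stretch. The median signal of these was 5.25 and 4.11, against 5.33 and 4.63 where the peak reached between the TSSs. Among open pairs the signal ran over a wide range, between 0.422 and 15.6 in replicate 1 (quartiles 3.87 and 7.03) and between 0.374 and 13.7 in replicate 2 (quartiles 3.06 and 6.54).

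The peaks were stronger without being wider. The strongest peak had a median width of 220 and 254 bp at pairs and 220 and 247 bp at one-sided promoters, a difference of 3.5 ± 4.95 bp, which is within the spread between the libraries. Peaks covered a median of 240 and 260 bp of an open pair region, against 220 and 240 bp of an open one-sided window. An open pair had 1.31 and 1.27 peaks on average, against 1.18 and 1.17 for open one-sided promoters, and 28.9% and 24.6% of open pairs had more than 1 peak, against 16.9% and 15.6%.

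Pairs had the higher share of open regions in each of the plotted classes of GC content in both libraries. At 50 to 55% GC, 80% and 80.95% of 105 pairs were open, against 47.4% and 49.5% of one-sided promoters. At 65 to 70% GC, 98.4% of 188 pairs were open in each library, against 87.0% and 82.9% of one-sided promoters. In the middle of the range, at 60 to 65% GC, the median signals were 5.80 and 5.34 at pairs and 3.99 and 2.95 at one-sided promoters. In the class of 75 to 80% GC, with 23 pairs, the medians were 3.05 and 1.72 at pairs and 2.43 and 1.75 at one-sided promoters, so the order turned in replicate 2.

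**Figure D1:**
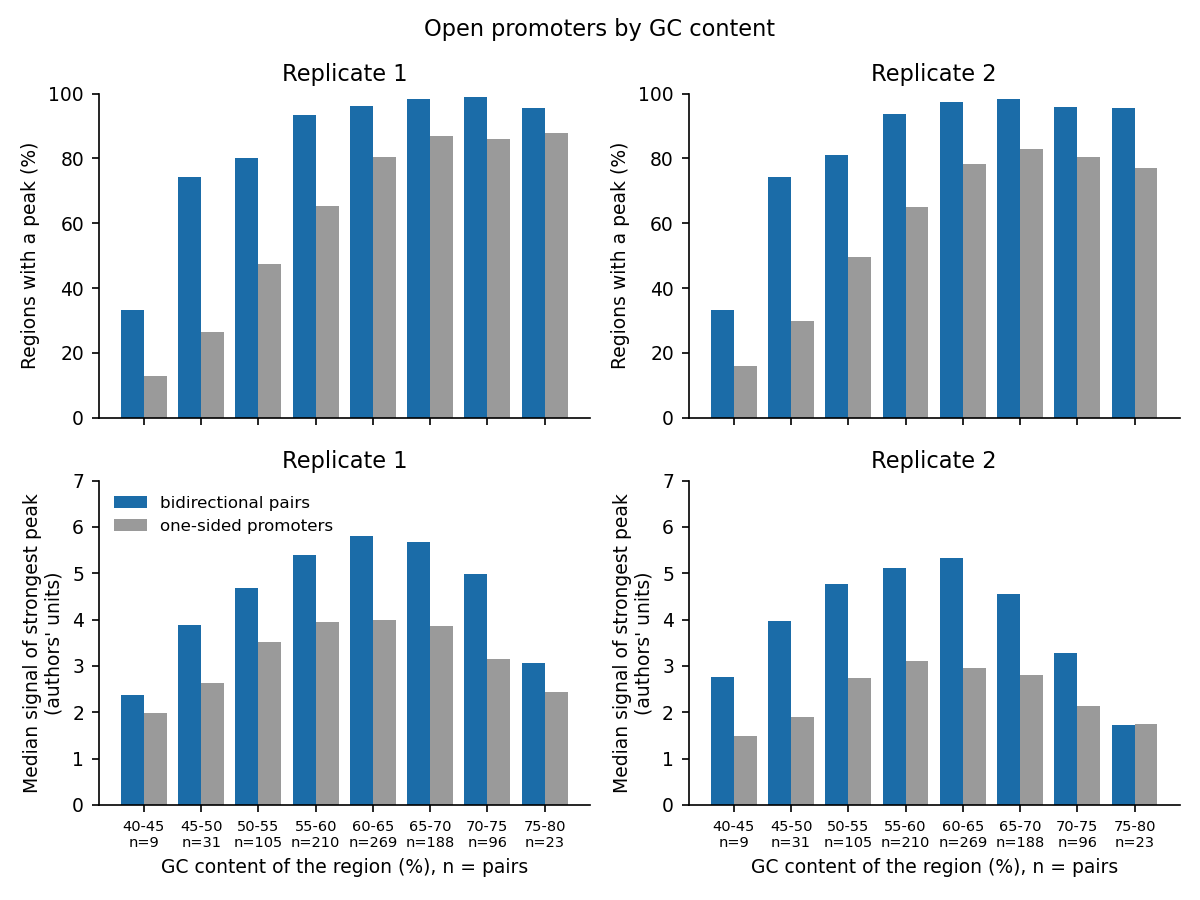
Share of regions with a peak (upper row, percent) and median signal of the strongest peak in open regions (lower row, the authors' units) by GC content of the region, for bidirectional pairs (blue) and one-sided promoters weighted to the same TSS distances (grey), in replicate 1 (left) and replicate 2 (right). The 931 pairs between 40% and 80% GC are plotted with n per class, and the blue bar is the higher one everywhere except for the signal at 75 to 80% GC in replicate 2.

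A partner gene that is not protein-coding gave values in between. Coding pairs were open in 93.1% and 93.4%, against 84.6% and 84.7% of the promoters of 977 protein-coding genes with a divergent noncoding gene starting within 1000 bp, weighted to the pairs' GC classes. Weighted to CpG classes, the share at noncoding partners was 88.3% and 87.9%. The median signal was 5.33 and 4.56 at coding pairs, against 4.64 and 3.52 at promoters with a noncoding partner and 3.71 and 2.77 at one-sided promoters, by GC class. Of the 80 pairs with a predicted gene (a Gm number or Rik symbol), 69 were open in each library (86.25%), beside 93.8% and 94.02% of the others.

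Taken over all open pairs, open chromatin was centred between the start sites, but not in the class above 500 bp. The midpoint of the strongest peak lay between the 2 TSSs at 67.4% and 63.5% of open pairs, and it was a median of 40.5 and 44.5 bp away from the centre of the pair. The median offset toward the plus-strand gene was -1 and -1.5 bp over all open pairs. In the class above 500 bp, with a median distance of 688 bp, the midpoint lay a median of 294.5 and 304 bp away from the centre. The signed median there was -157 and -116.75 bp, toward the minus-strand gene. With offsets of that size it is not read as a shift. Seen from each gene's own TSS, peak coverage was highest 64 bp upstream in both libraries, where 78.9% and 79.7% of the genes of pairs were covered. At one-sided genes of the same GC content the maximum was 57.8% at 39 bp upstream in replicate 1 and 56.1% at 43 bp upstream in replicate 2. The sets differed on the upstream side: 200 bp upstream, 32.8% and 38.9% of the genes of pairs were covered against 17.4% and 23.9% of one-sided genes. On the gene's own side, 200 bp downstream, the shares were 13.6% and 14.4% at genes of pairs and 14.8% and 14.7% at one-sided genes.

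**Figure D2:**
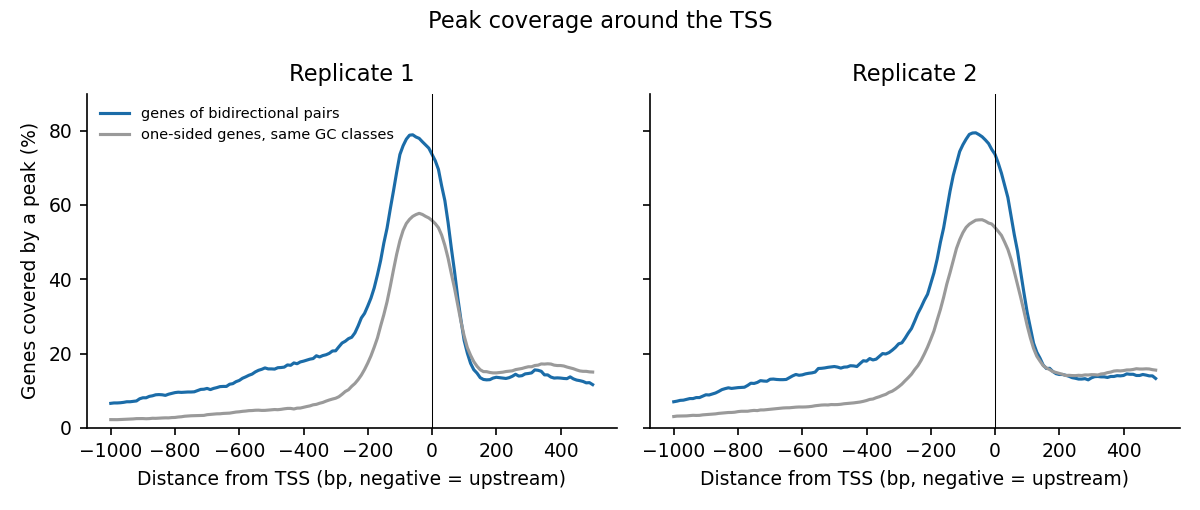
Share of genes covered by a peak (percent) at each distance from the TSS (bp, negative values upstream) for the 1866 genes of bidirectional pairs (blue) and for one-sided genes weighted to the same GC classes (grey), in replicate 1 (left) and replicate 2 (right). The blue curve peaks at 78.9% and 79.7% and stays above the grey curve on the upstream side, where the partner gene lies. Downstream the curves cross, and at 200 bp the shares are 13.6% and 14.4% at genes of pairs and 14.8% and 14.7% at one-sided genes.

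The TSSs of close pairs mostly shared 1 peak, and those of distant pairs had separate peaks or a peak at 1 TSS only. Of the 374 pairs with TSSs at most 100 bp apart, 93.3% and 92.2% had the same peak within 100 bp of both TSSs. Above 200 and up to 300 bp (125 pairs) this was 60.8% and 72.0%, and above 300 and up to 500 bp (92 pairs) 22.8% and 31.5%. In that last class a further 40.2% and 29.3% had different peaks at the 2 TSSs. Above 500 bp (96 pairs) 42.7% and 37.5% had different peaks at both TSSs, and 1 and 0 pairs had both TSSs at the same peak. Where only 1 TSS had a peak, it was the minus-strand one at 19 and 23 pairs and the plus-strand one at 18 and 21 pairs. Much of this trend with distance follows from the measure. Up to 200 bp apart, the 100 bp searched on each side of the 2 TSSs overlap, so 1 peak easily counts for both. Above 500 bp the strongest peak had a median width of 220 and 240 bp, too narrow to reach both.

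With distance the number of peaks grew, and the share of open pairs did not. More than 1 peak was found at 16.8% and 15.7% of open pairs with TSSs at most 100 bp apart and at 63.0% and 60.7% of those more than 500 bp apart. Regions lengthen with distance, so more peaks fit. Peaks per open pair rose from 1.17 and 1.16 in the closest class to 1.79 and 1.77 in the most distant one. Open one-sided windows of the same classes rose too, from 1.13 and 1.11 to 1.41 and 1.39. The share of pairs open was 95.7% and 95.5% in the closest class and 84.4% and 87.5% in the most distant one. Closest pairs had a median signal of 5.02 and 3.82, and those above 100 and up to 200 bp apart 5.69 and 5.13. One-sided windows of the closest class had a median signal of 3.83 and 2.87, and those of the next class 3.72 and 2.78.

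**Figure D3:**
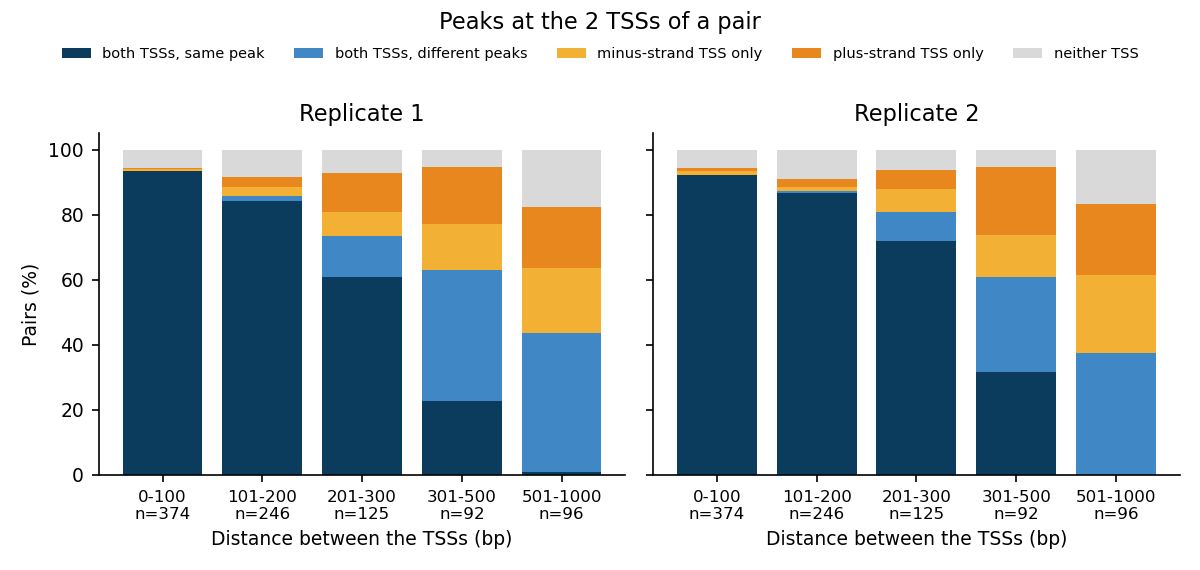
Share of bidirectional pairs (percent) by how peaks lie within 100 bp of their 2 TSSs, stacked by class of TSS distance (bp, n pairs per class), in replicate 1 (left) and replicate 2 (right). Dark blue stands for pairs with both TSSs at the same peak, and it shrinks from 93.3% and 92.2% in the closest class to 1.04% and 0% in the most distant one. In classes up to 200 bp the stretches searched around the 2 TSSs overlap, so part of this trend follows from the measure.

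Footprints were more numerous at bidirectional promoters. A region held 5.63 and 6.33 footprints on average, against 3.57 and 3.89 in one-sided windows of the same GC content, a difference of 2.25 ± 0.269 (SD, n = 2). With CpG classes the one-sided means were 4.27 and 4.62, and with GC and CpG classes together the difference was 1.42. At least 1 footprint was found in 93.8% of pairs in each library, against 74.99% and 73.6% of one-sided windows. Per 1000 bp of peak-covered DNA the pairs had 18.1 and 18.2 footprints against 16.6 and 16.4, a difference of 1.66 ± 0.179. Kept to peaks at or above their library's median signal, this last difference was 0.787, and in the longer peak list it was 2.62.

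Inside the peaks, footprints lay more densely between the start sites than in the flanks. Between the TSSs there were 20.1 and 20.3 footprints per 1000 covered bp, against 16.3 and 16.5 in the 200 bp flanks, which are the first transcribed bases of the genes. Footprints in the regions had a median width of 12 bp in both libraries, beside 10 and 9 bp over the whole lists. They took up 27.6% and 28.6% of the covered bases.

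The 10 pairs with the most footprints all had TSSs more than 500 bp apart, and thus long regions. Nlgn2/Tmem256 had 17 in each library, with Nlgn2 encoding an adhesion protein of inhibitory synapses. Ddx5/Cep95 (an RNA helicase and a centrosomal protein) had 20 and 13, and Srsf2/Mfsd11 (Srsf2 is a splicing factor) had 12 and 19. Atp6v1a/Naa50, a subunit of the vacuolar proton pump and an acetyltransferase of protein ends, had 10 and 21. Srgap2/Fam72a, with a regulator of dendritic spines as minus-strand gene, had 12 and 18. The other 5 (Ttc9c/Hnrnpul2, Cep170/Sdccag8, Fhod1/Slc9a5, Mms19/Ubtd1 and Tst/Mpst) had between 11 and 18 in a library. Counts of 1 pair thus differed by up to 11 footprints between libraries.

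Motifs differed between bidirectional and one-sided promoters in kind. Searched were exact matches on either strand of ETS (CCGGAAG), NRF1 (GCGCATGCG), YY1 (AAGATGGCG), SP and KLF (GGGGCGGGG), CRE (TGACGTCA), E-box (CACGTG), ZBTB33 (CTCGCGAG), ZNF143 (ACTACAATT), RFX (GTTGCCATG), CTCF (CAGGGGGCG) and the TATA box, searched as TATAAA. For NFY the letters searched were CCAATCA and, as a second form that counted in the same way, CCAATGA. Matches of 1 motif on the 2 strands can overlap and are then counted as separate sites, and the SP and CTCF strings can share bases. The ETS motif was in 345 pairs, or 37.0%, against 17.0% of one-sided windows of the same GC content and 21.02% of those of the same CpG content. It was in 12.7% of all one-sided windows.

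The motifs of YY1, NFY and NRF1 were also found more often at pairs. YY1 matches were in 7.72% of pairs against 3.31% of GC-weighted one-sided windows, NFY matches in 25.4% against 16.1%, and NRF1 matches in 6.32% against 3.31%. CRE was found in 5.89% against 3.25%, ZBTB33 in 4.50% against 2.02%, RFX in 1.82% against 0.983%, and ZNF143, with 13 pairs, in 1.39% against 0.480%. The SP and KLF motif was less frequent at pairs (27.2% against 30.9%), as were CTCF (3.75% against 4.93%) and TATA (7.93% against 11.8%), while the E-box was about as frequent (15.5% against 14.9%). Each of these 12 comparisons had the same direction with CpG classes except the E-box, where the one-sided share was 16.0%. Over all one-sided windows the shares were 2.35% for YY1, 18.1% for NFY, 2.25% for NRF1, 18.2% for SP and KLF, 28.4% for TATA, 12.5% for the E-box, 2.47% for CRE, 2.99% for CTCF, 1.25% for ZBTB33, 1.01% for RFX and 0.735% for ZNF143.

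**Figure D4:**
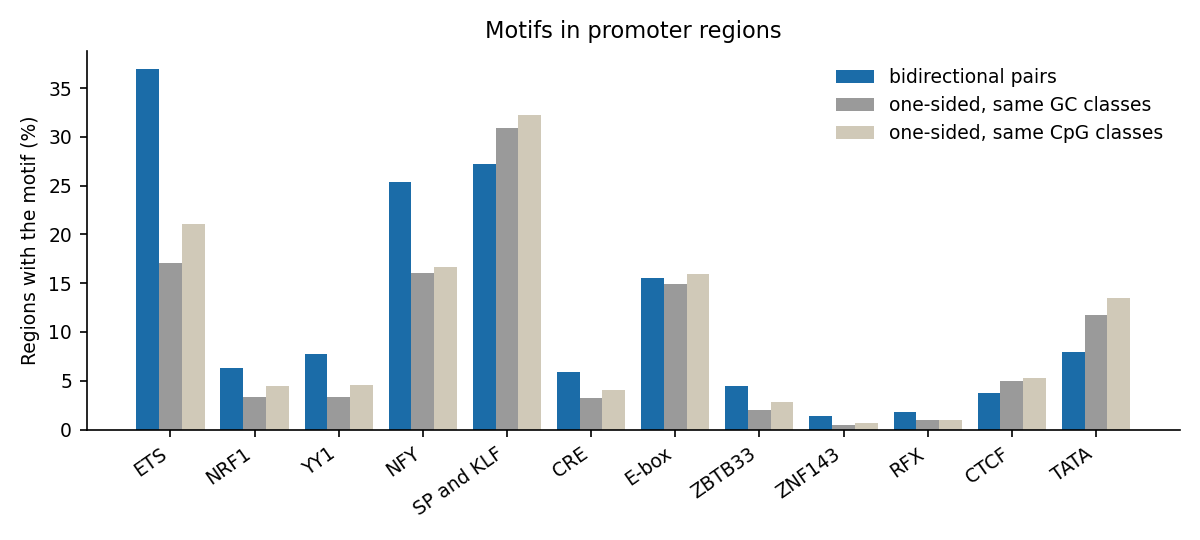
Share of regions with an exact match to each of 12 motifs (percent), for the 933 bidirectional pairs (blue), one-sided windows weighted to the same GC classes (grey) and one-sided windows weighted to the same CpG classes (beige). The ETS motif stands out with 37.0% of pairs against 17.0% and 21.02%, and the TATA motif is lower at pairs.

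Which matches were footprinted depended on the motif. Of NRF1 sites inside peaks of pairs, 92 of 97 in replicate 1 and 86 of 95 in replicate 2 had their centre in a footprint, and of CRE sites 46 of 51 and 47 of 49, where footprints took up 27.6% and 28.6% of covered bases. For SP and KLF sites this was 71.3% and 80.7%, and for ETS sites 44.3% and 55.3%. NFY sites were footprinted in 29.1% and 32.7%, close to the share of covered bases. At one-sided promoters the shares were 87.2% and 92.7% for NRF1, 87.4% and 94.1% for CRE, 65.5% and 71.3% for SP and KLF, 35.7% and 43.0% for ETS and 28.8% and 31.7% for NFY. Shares were higher at pairs in both libraries for ETS, SP and KLF, CRE, NFY, RFX, ZNF143 and TATA, lower in both for YY1 (45% and 36.8% against 47.8% and 41.4%), and of mixed order for the other motifs. Few sites in peaks of pairs stood behind RFX (9 and 7), ZNF143 (11 and 12) and TATA (23 and 28).

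Pairs with an NFY match were more strongly open than those without in both libraries. Their median signal was 5.90 and 6.05 with the match and 5.14 and 4.11 without it. Pairs with a CRE had 6.90 and 5.35 with the match and 5.25 and 4.54 without it. For the ETS motif the medians lay closer, at 5.48 and 4.70 with it and 5.25 and 4.50 without it. Pairs with a TATA match had 4.64 and 4.32, below the 5.41 and 4.59 of those without one.

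The 10 most strongly open pairs had a mean signal above 10 and carried genes of varied function. Acin1/1700123O20Rik had 15.6 and 13.7 (14.6 ± 1.33, SD, n = 2), the highest signal of all pairs in each library, and Acin1 encodes a nuclear RNA-binding protein of splicing complexes. This peak lay mostly inside Acin1: of its 380 bp, 250 were in the region and 50 in the stretch from TSS to TSS, in both libraries. Kcnab2/Nphp4, with a subunit of voltage-gated potassium channels and a protein of the base of cilia, had 13.2 and 11.8, from a peak inside Kcnab2 that overlapped the region by 30 and 70 bp. Ruvbl2/Gys1 had 13.0 and 11.3, and Rnft2/2410131K14Rik 11.3 and 11.6. Fam192a/Rspry1 had 10.7 and 13.3, from a peak that lay in the flank on the Fam192a side and did not reach between the TSSs. Each of these 5 pairs was above the upper quartile of open pairs in both libraries, which follows largely from their choice by mean signal. The order of the 2 libraries varied among them.

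The next 5 pairs were open to a like degree. Fbh1/Ankrd16 had 12.7 and 10.1, with TSSs 909 bp apart and 2 peaks in each library, and Fbh1 is a DNA helicase. Eif2b4/Snx17 had 11.9 and 10.9, pairing a subunit of the translation initiation factor eIF2B with an endosomal sorting protein. Zfp654/Cggbp1 had 11.2 and 11.0, and Cggbp1 encodes a protein that binds CGG repeats. Rita1/Ddx54 had 10.2 and 11.8, from the peak past the Ddx54 TSS, and Qtrt2/Ccdc191 9.98 and 11.2, where Qtrt2 is a subunit of the enzyme that puts queuine into transfer RNAs.

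Several gene groups were frequent in bidirectional pairs. Replication-dependent histones had the highest share of the lists, with 27 of 71 genes (38.0%) in a pair. Of 75 DNA repair genes, 27 (36.0%) were in a pair, as were 25 of 78 genes of the mitochondrial ribosome (32.1%), 25 of 90 of the respiratory chain (27.8%) and 22 of 84 chaperones (26.2%). Of transfer RNA synthetases 9 of 38 (23.7%) were in a pair, and of cytosolic ribosomal proteins 12 of 79 (15.2%), where the share over all protein-coding genes was 8.97%. Of 38 neuronal genes, among them synaptic vesicle, glutamate receptor and scaffold genes, 0 were in a pair.

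DNA repair pairs had a median signal above that of all open pairs. It was 6.70 and 6.66, against 5.33 and 4.56 over all open pairs. Of the 27 pairs, 25 were open in both libraries, which is the share over all pairs (92.6%). Desi1/Xrcc6, with the Ku70 gene of double-strand break repair, had 9.86 and 10.0, and Hscb/Chek2, with a checkpoint kinase, 8.43 and 7.85. Chaperone pairs had 6.63 and 6.17, with 18 of 20 open in both libraries. Dnajb4/Fubp1 had 11.2 and 8.96, and Mrpl18/Tcp1, which joins a mitochondrial ribosomal gene to a chaperonin subunit, 7.55 and 10.7.

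The other housekeeping groups lay near all pairs. Mitochondrial ribosome pairs had a median of 5.20 and 4.42, and 24 of 24 were open in both libraries. After Mrpl18/Tcp1 the highest was Mrps18b/Ppp1r10, with 8.46 and 8.21. Respiratory chain pairs had 5.21 and 4.51, with 24 of 25 open. Tepsin/Ndufaf8 had 6.87 and 9.66 and Esf1/Ndufaf5 8.58 and 6.92, each with an assembly factor of complex I. Cytosolic ribosome pairs had 5.83 and 5.35, with 12 of 12 open. Med22/Rpl7a, a Mediator subunit beside a protein of the large ribosomal subunit, differed between the libraries, with 11.0 and 6.02. Synthetase pairs had 5.16 and 4.37, with 8 of 8 open.

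Histone pairs differed between the libraries. Replication-dependent histone genes, which package newly made DNA, were in 14 pairs, most of them an H2A gene beside an H2B gene, and 10 were open in both libraries. The median over open pairs was 2.38 in replicate 1 and 4.39 in replicate 2, beside 5.33 and 4.56 over all open pairs, and the highest mean was that of Hist1h2an/Hist1h2bp, with 2.88 and 4.48. All 10 pairs open in both were higher in replicate 2, and log2 of replicate 1 over replicate 2 had a median of -0.94 and a range of -1.36 to -0.63. In the same range of GC content, 49 of 126 other pairs were higher in replicate 2, and their median log2 difference was 0.13. Of 18 one-sided histone promoters open in both libraries, 8 were higher in replicate 2, with a median of 0.02. Many histone genes are near-identical copies in clusters, so reads may be shared or lost among them, and the values of single histone pairs are uncertain. The 3 pairs with no peak in either library were Hist1h2bq/Hist1h2ao, Hist1h2ap/Hist1h2br and Hist1h2ba/Hist1h2aa, and whether lost reads had a part in this was not tested. How alike the copies of each pair are was not tested.

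Of 18 pairs picked from the literature, 8 met the rule in this annotation. Atm/Npat, a DNA damage kinase beside a regulator of histone genes, had 8.72 and 9.54, and Mcm4/Prkdc, a replicative helicase subunit beside the kinase of end joining, 7.52 and 8.13. Hspd1/Hspe1 had 7.42 and 4.20 with 9 and 8 footprints. Mrps12/Sars2 had 4.30 and 6.88, where the strongest peak of replicate 1 lay past the Sars2 TSS. Hars/Hars2, which encode the cytosolic and the mitochondrial histidyl-tRNA synthetase, had 5.21 and 4.53, and Prr3/Gnl1 had 4.18 and 3.003. Brca1/Nbr1 was weaker, at 3.01 and 2.85. Psmb9/Tap1, an immunoproteasome subunit and an antigen peptide transporter that interferon is known to induce, had no peak in either library.

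The 57 pairs closed in both libraries were lower in GC and CpG than the open ones. Their median GC content was 54.6% against 62.8% in the 864 pairs open in both, and their median observed over expected CpG 0.358 against 0.838. The longer, wider peak list had a peak in some library at 14 of them and in both libraries at 1. An ETS match was in 3 of the 57 (5.26%) against 39.4% of open pairs, a TATA match in 9 (15.8%) against 7.29%, and an NFY match in 12 (21.1%) against 25.8%. An NRF1 match was in 0 of the 57, against 6.83% of open pairs.

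The 10 closed pairs with the highest GC content carried genes of varied function. Draxin/Mad2l2 (77.5% GC) pairs an axon guidance gene with a gene of DNA repair, and Shox2/Rsrc1 (70.8%) holds a homeobox gene of limb and heart development. Gm9857/Henmt1 (67.5%), Kctd19/Lrrc36 (65.1%), Tssk3/Fam229a (64.9%) and Lypd4/Dmrtc2 (63.2%) include genes known from germ cells, such as the piRNA methyltransferase Henmt1 and the testis-specific kinase Tssk3. Bhmt2/Dmgdh (64.9%) are enzymes of methyl group metabolism in liver and kidney, and Col4a4/Col4a3 (62.9%) are collagens of the kidney's basement membrane. Psmb9/Tap1 (62.2%) and Gm10447/Shroom1 (60.7%) complete the 10. All 10 lacked a peak of the shorter list, but the longer list had one at Kctd19/Lrrc36 in both libraries. It also had one in replicate 1 alone at Draxin/Mad2l2 and Gm10447/Shroom1, and in replicate 2 alone at Gm9857/Henmt1 and Col4a4/Col4a3. Whether a gene of a closed pair has another, open TSS was not tested.

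Few pairs were open in 1 library alone, and nearly all of them were weak. Replicate 1 alone had peaks at Tor1aip1/Tor1aip2 (signal 1.45), Il17rb/Chdh (1.12), Tbc1d16/Ccdc40 (1.08), Tradd/Fbxl8 (0.92) and N4bp3/D930048N14Rik (0.86). Replicate 2 alone had the exception, Dnajc7/Nkiras2, at 4.90, above the median of open pairs in that library, but this peak overlapped the region by 13 bp at its edge. Replicate 1 had no peak there in either of its lists. The next highest were Hist1h2bh/Hist1h3f (3.31), Surf4/Stkld1 (2.45), P3h4/Fkbp10 (1.31) and Gm3448/Ermard (0.64).

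The libraries ranked the pairs alike, with a shift that moved with GC content above 60%. Across the 864 pairs open in both, log2 signal gave 0.828 for Pearson's r and 0.787 for Spearman's rho. Footprints per region over all 933 pairs gave 0.760 for r and 0.708 for rho. These are across pairs that share the same 2 libraries and differ in GC content, so no p is given. The signals were within 2-fold of each other at 94.7% of pairs, beside 92.7% of one-sided promoters. Log2 of replicate 1 over replicate 2 had a median of 0.11 at 45 to 50% GC, 0.08 at 50 to 55%, 0.07 at 55 to 60%, 0.19 at 60 to 65%, 0.40 at 65 to 70%, 0.56 at 70 to 75% and 0.77 at 75 to 80%, so it rose above 60% GC and not below. At one-sided promoters it was 0.13, 0.24, 0.29, 0.35, 0.42, 0.52 and 0.65 in the same classes. The part of GC content in the differences of single pairs was not tested.

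The 5 pairs with the largest excess in replicate 1 had 69.7% GC or more, and those with the largest excess in replicate 2 had 58.7% or less. Higher in replicate 1 were Thoc7/Atxn7 (1.71 and 0.574 in replicates 1 and 2, 80.7% GC), Noc4l/Ddx51 (7.03 and 2.56, 69.7% GC), Tmem63b/Mrpl14 (5.19 and 1.96, 72.4% GC), Rnf166/Ctu2 (4.78 and 1.86, 75% GC) and Lrrc75a/Mmgt2 (4.16 and 1.65, 74.6% GC). Higher in replicate 2 were Mdh1/Wdpcp, with a malate dehydrogenase gene (2.99 and 7.98, 58.7% GC), and 4 histone pairs. At Mdh1/Wdpcp the values belong to different peaks, as the strongest one lay over the TSSs in replicate 1 and on the Mdh1 side of them in replicate 2. These were Hist1h2ae/Hist1h2bg (1.23 and 3.15), Bola1/Hist2h2ab (1.33 and 3.24), Hist1h2ak/Hist1h2bn (1.63 and 3.86) and Hist1h2ah/Hist1h2bk (2.24 and 4.86).

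**Figure D5:**
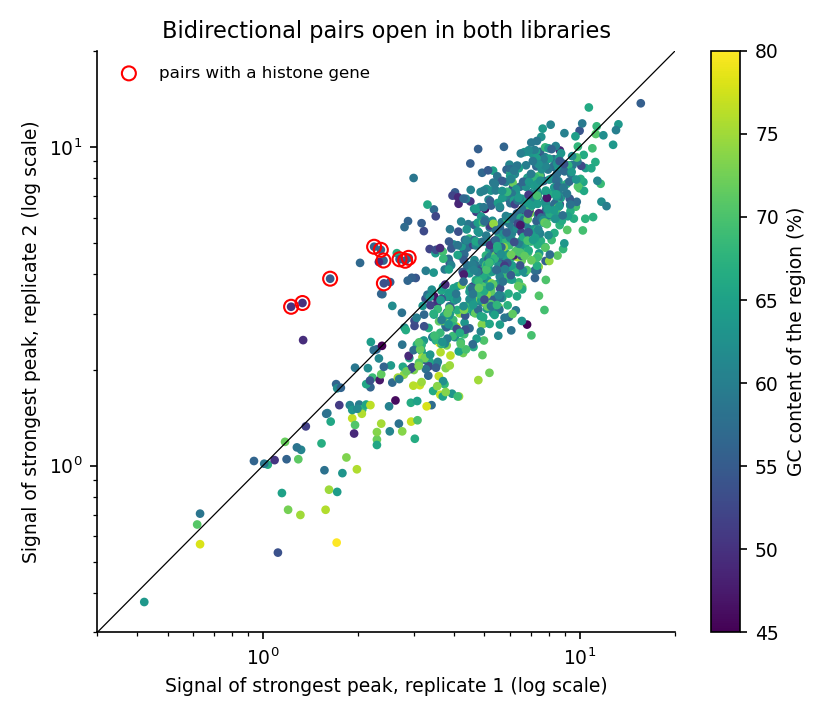
Signal of the strongest peak (the authors' units, log scales) in replicate 1 (horizontal) and replicate 2 (vertical) for the 864 bidirectional pairs open in both libraries, coloured by GC content (percent), with the line of equal signal. Red circles mark the 10 histone pairs, which all lie above the line, while most pairs of high GC content lie below it.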

How the data were processed

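The authors called DNase-seq peaks and footprints per library, out of that library's filtered mm10 alignments, per the deposited notes. Neither aligner nor callers, versions or thresholds are given in the sources used here. In these lists the deposited peak signal is 1 value per peak of unstated scaling, used to describe and rank peaks. The deposited footprint score was the same in every row, so positions alone were used. The per-base false discovery rates were not used here. Read totals were not used, so depth is known through the number of calls only, and no counting interval is given. Reads of both parental genomes were placed on a C57BL/6 reference, so peaks on diverged CAST sequence can be missed.

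For each library its shorter peak list was the main one, and an overlap of 1 bp counted. Overlapping peaks of a list were merged when covered bases were counted. Pairs and one-sided promoters came from the GENCODE M21 basic annotation (protein-coding genes, chromosomes 1 to 19), and sequence from RefSeq GRCm38.p6. One-sided windows were weighted directly to the pairs' distance classes (up to 100, 200, 300, 500 and 1000 bp) and GC classes of 5 points. All 933 pairs fell in classes with one-sided windows. Their TSS was the most upstream one. The standardisation was tested on simulated data. Computations used python 3.11.15, numpy 2.4.6 and pandas 2.3.3, and figures matplotlib 3.10.9.

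Named are the 10 pairs with the strongest mean signal, the 10 with the most footprints, the 10 closed ones of highest GC, the 5 strongest open in 1 library only and the 5 that differ most between libraries in each direction, the literature pairs found, and examples of each gene list by mean signal. Some of these examples are not reported here. The 3 histone pairs without a peak were named after their values were seen. The pairs, lists, motifs and comparisons were chosen with earlier results of these data known. Alternatives concerned the peak list, peak threshold, overlap, GC and CpG matching, TSS distance and choice, window, one-sided set, gene families, annotation and each library alone.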

Additional observations from a re-analysis of the deposited data

How the results depend on the processing

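Values are pairs minus one-sided promoters, as means of the libraries. None of the 14 alternatives planned or the 3 chosen after seeing the data (the comprehensive annotation, no predicted genes, GC with CpG matching) turned the sign of a difference that exceeded the spread between libraries. The longer peak list gave 16.5 points for the share with a peak, 0.0813 peaks per open region, 1.95 for signal, 10 bp covered, 2.62 footprints per kb and 18.2 points open in both. Equally long lists of the strongest peaks gave 23.1 points, a width of -2 bp, 1.47 footprints per kb and 26.4 points open in both. Peaks at or above the median signal gave 29.0 points, 0.138 peaks, a signal of 1.30, a width of -2.5 bp, 0.787 footprints per kb and 30.65 points. Counting peak midpoints gave 0.0675 peaks and 10 bp. Without GC matching the values were 44.5 points, 3.62 footprints and 46.5 points. CpG matching gave 8.885 points, a signal of 1.37, a width of -3 bp, 1.53 footprints, 1.18 per kb and 11.0 points, and GC with CpG matching 7.73 points, 1.27, 15.5 bp covered, 1.42 footprints, 1.12 per kb and 9.59 points. GC classes of 2 points gave 18.5 bp covered and a width of -3 bp. Pairs at most 500 bp apart gave 0.0837 peaks and a width of 10 bp. Allowing noncoding partners gave 19 bp and -3 bp, the TSS with the most transcripts 16.5 bp and -4.5 bp, and 1 gene at a time 21 bp covered. The comprehensive annotation (1103 pairs) gave a signal of 1.515, 12 bp covered, a width of 10 bp, 1.89 footprints, 1.375 per kb and 22.2 points, and leaving out predicted genes a width of -3.75 bp. The cause of these shifts was not tested. With each library alone the share differed by 20.2 to 22.5 points, signal by 1.62 to 1.79, peaks by 0.0965 to 0.128, covered bases by 20 in each, width by 0 to 7 bp, footprints by 2.06 to 2.44 and footprints per kb by 1.54 to 1.79. Of the values recomputed, 85 moved by no more than the spread between the libraries and 49 by more. Part of this tally was fixed in advance. A value of 1 library alone cannot lie further from the mean of 2 than their SD. Footprints per region do not depend on the peak list. Covered bases had a spread of 0, so any change counted as a move. Openness in both libraries was judged by the spread of the share with a peak. Openness in both libraries has no value with 1 library left out. No paired analysis was possible because the libraries form 1 group.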
